A study of Mus musculus with 28 samples.

Results

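The ADAMTS proteases ("a disintegrin and metalloproteinase with thrombospondin motifs") were followed as a family of 10 genes, Adamts1, Adamts2, Adamts3, Adamts4, Adamts5, Adamts6, Adamts9, Adamts12, Adamts14 and Adamts15, among the 54429 genes of a read count table. Members were taken by symbol and not by a cut on their values, though with earlier results of these data known. All 10 were in the table. The cells were O9-1, an established mouse line of cranial neural crest cells, embryonic cells that form most of the facial skeleton. In the first of 4 states they proliferated in conditioned medium with 15% fetal calf serum (FCS), 25 ng/ml bFGF and 5 ng/ml LIF. Chondrocyte cultures spent 3 days in osteoblast medium and then 7 days as micromasses on matrigel with 5% FCS, insulin-transferrin-selenium, 0.1 µM dexamethasone, 10 ng/ml TGF-beta3 and 50 ng/ml BMP-2. Osteoblast cultures spent 10 days in medium with 10% FCS, 10 mM beta-glycerophosphate, 0.1 µM dexamethasone and 100 ng/ml BMP-2, and smooth muscle cultures spent 3 days in medium whose only named additions were 10% FCS and antibiotics. Each state was kept at 21% O2 (normoxic, n = 4 libraries) or at 0.5% O2 (hypoxic, n = 3 libraries), which gives 8 groups and 28 libraries. All groups came from this line, so they share its origin, and the labels do not say whether replicates were separate cultures. The p-values therefore measure the spread between these libraries, which may be technical.

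ADAMTS proteins are secreted zinc-dependent proteases that act on the extracellular matrix. They are made with a propeptide that furin-like convertases remove, and the thrombospondin repeats and other domains behind the catalytic part guide them to their substrates. ADAMTS1, 4, 5, 9 and 15 cleave large proteoglycans such as aggrecan and versican, ADAMTS2, 3 and 14 remove the amino-terminal propeptide of fibrillar procollagens, and ADAMTS12 can cleave cartilage oligomeric matrix protein (COMP). In cartilage, loss of aggrecan to ADAMTS4 and ADAMTS5 is a well-known feature of osteoarthritis, and versican cleavage by this family takes part in palate and limb shaping.

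Upstream sequence was read from the RefSeq promoter table (GRCm38.p6), which holds 6 of the 10 members, Adamts1, Adamts2, Adamts3, Adamts9, Adamts12 and Adamts14. The table has no entry matched for Adamts4, Adamts5, Adamts6 and Adamts15. Since oxygen levels were compared, the 250 bases before each start were searched on both strands for ACGTG, the core of the element that hypoxia-inducible factors bind, and for TATAAA, which places the transcription machinery in some core promoters. Letters such as CACGTG, an E-box, hold the first motif on both strands. The members shown are Adamts1, which gave the most counts in every group, Adamts2 and Adamts14, which moved in opposite directions on differentiation, and Adamts3, which was hardly detected. Letters run 5′ to 3′ on the gene's own strand up to the base before the RefSeq start, and capitals mark a motif found. GENCODE M21 starts differ, so that 19 bases of the Adamts14 window and 1 base of the Adamts2 window lie in an annotated exon.
Adamts1: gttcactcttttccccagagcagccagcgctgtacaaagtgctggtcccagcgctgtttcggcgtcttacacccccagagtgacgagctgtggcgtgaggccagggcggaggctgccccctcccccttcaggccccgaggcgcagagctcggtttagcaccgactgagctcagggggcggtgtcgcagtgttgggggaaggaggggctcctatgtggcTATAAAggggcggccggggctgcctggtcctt
Adamts2: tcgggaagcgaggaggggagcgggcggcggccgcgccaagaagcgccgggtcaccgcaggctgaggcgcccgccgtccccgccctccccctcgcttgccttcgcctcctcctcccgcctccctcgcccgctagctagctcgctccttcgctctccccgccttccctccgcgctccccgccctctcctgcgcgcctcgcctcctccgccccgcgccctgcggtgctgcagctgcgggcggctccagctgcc
Adamts3: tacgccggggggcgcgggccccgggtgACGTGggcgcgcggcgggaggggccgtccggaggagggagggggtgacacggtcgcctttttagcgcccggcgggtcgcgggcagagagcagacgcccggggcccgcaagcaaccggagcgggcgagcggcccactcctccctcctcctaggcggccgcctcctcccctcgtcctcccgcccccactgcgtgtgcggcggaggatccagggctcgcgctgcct
Adamts14: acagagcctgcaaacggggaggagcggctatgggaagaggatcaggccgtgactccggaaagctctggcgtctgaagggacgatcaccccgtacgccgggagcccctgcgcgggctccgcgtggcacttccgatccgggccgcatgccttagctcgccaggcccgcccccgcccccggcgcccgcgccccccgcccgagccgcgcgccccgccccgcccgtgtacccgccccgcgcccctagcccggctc
These windows are chr16:85803114-85803363 on the minus strand for Adamts1, chr11:50601835-50602084 on the plus strand for Adamts2, chr5:89883335-89883584 on the minus strand for Adamts3 and chr10:61273420-61273669 on the minus strand for Adamts14. ACGTG was found in 1 of the 6 windows, 223 to 219 bases before the start of Adamts3, and in 16.6% of all 32851 promoter windows of this length. TATAAA was found in 1 of the 6, 32 to 27 bases before the start of Adamts1, and in 12.4% of all windows. Guanine and cytosine made up 65.6% of the Adamts1 window, 78% of those of Adamts2 and Adamts3, 76.4% of the Adamts14 window and a median of 52.4% over all windows. A match describes these letters only, and no match says only that the letters are not in this window. In GENCODE M21, Adamts1 (chromosome 16, 85793827 to 85803113) and Adamts5 (chromosome 16, 85856173 to 85901828) are neighbours on the minus strand, 53.1 kb apart with 0 protein-coding genes between them.

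Library totals lay between 19.87 and 64.69 M counts (M, 1e+06). The 3 hypoxic smooth muscle libraries held 11.62% to 13.31% of their counts in the mitochondrial ribosomal RNA genes, where no other library held more than 0.0889%, and their scaling factor by the trimmed mean of M values (TMM) averaged 0.518. Levels below are counts per 1e+06 scaled counts (CPM). Markers were checked against the labels. Of the neural crest markers, Sox10 had 1 count in all, while Twist1, Tfap2a, Prrx1 and Snai2 were detected in all groups. Summed chondrocyte markers reached 2852 to 8675 CPM in normoxic chondrocyte libraries, against 104 to 143 CPM in normoxic proliferating and only 854 to 1280 CPM in hypoxic chondrocyte ones, where Matn1 was at 0. Summed osteoblast markers were only 62.7 to 146 CPM in normoxic osteoblast libraries, beside 58.4 to 67.4 CPM in proliferating and 1053 to 2548 CPM in chondrocyte ones, with Ibsp at 1.13 CPM and Sp7 at 12.1 CPM, so their defining markers were low. They were 366 to 393 CPM in hypoxic osteoblast libraries. Summed smooth muscle markers were not limited to their label. They were 3560 to 5099 CPM in normoxic osteoblast and 2071 to 2523 CPM in normoxic chondrocyte libraries, where 5 of 5 and 4 of 4 tested markers rose over proliferating cells, and 2159 to 2432 CPM and 1887 to 2260 CPM in the hypoxic ones. They were 3529 to 3990 CPM in normoxic smooth muscle cultures and 94.7 to 119 CPM in hypoxic ones, which lie below the 191 to 195 CPM of hypoxic proliferating cells, so the hypoxic smooth muscle label is not borne out by its markers. Neuronal markers (81.6 to 134 CPM summed) were highest in the chondrocyte cultures of both oxygen levels, skeletal muscle markers (22.0 to 40.3 CPM) in both osteoblast groups with Myod1 and Myog at 0, and macrophage markers (33.6 to 37.4 CPM) in hypoxic smooth muscle libraries with Adgre1 and Lyz2 at 0. The part of these other cell types in the results below was not tested. Of 8 hypoxia response genes (such as Car9 and Vegfa), 8 rose at 0.5% O2 in each of the 4 states, with median log2 changes of 3.60 in proliferating, 1.65 in chondrocyte, 3.33 in osteoblast and 4.17 in smooth muscle cultures. In normoxic chondrocyte against proliferating cultures 6 of them also rose and 0 fell (median 1.97). In such bulk samples, fewer cells of a type and less RNA per cell cannot be told apart.

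The family as a whole was a small share of the transcriptome that varied widely between states. The summed level of the 10 members was 156 ± 6.23 CPM (SD, n = 4) in normoxic proliferating cells, 1371 ± 96.7 CPM (n = 4) in chondrocyte, 2217 ± 266 CPM (n = 4) in osteoblast and 663 ± 33.2 CPM (n = 4) in smooth muscle cultures. At 0.5% O2 it was 294 ± 8.67 CPM (SD, n = 3) in proliferating, 1766 ± 336 CPM (n = 3) in chondrocyte, 6653 ± 434 CPM (n = 3) in osteoblast and 79.0 ± 11.4 CPM (n = 3) in smooth muscle cultures. The sum in hypoxic osteoblast libraries was mostly 1 gene. Adamts1 gave 95.3% ± 0.456 (SD, n = 3) of the members' counts there and 85.4% ± 1.52 (SD, n = 4) in normoxic osteoblast cultures, against 40.0% ± 3.26 (SD, n = 4) in normoxic proliferating cells. Per kilobase of exon, Adamts1 also led in all 8 groups, at 11.7 CPM per kb in normoxic proliferating cells and 1195 CPM per kb in hypoxic osteoblast cultures. The member in second place per kilobase changed with the state: Adamts14 in proliferating cells (4.90 CPM per kb normoxic, 4.25 hypoxic), Adamts12 in chondrocyte cultures (40.7 and 41.8), Adamts2 in normoxic osteoblast cultures (8.72) and Adamts4 in normoxic smooth muscle cultures (14.4).

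**Figure D1:**
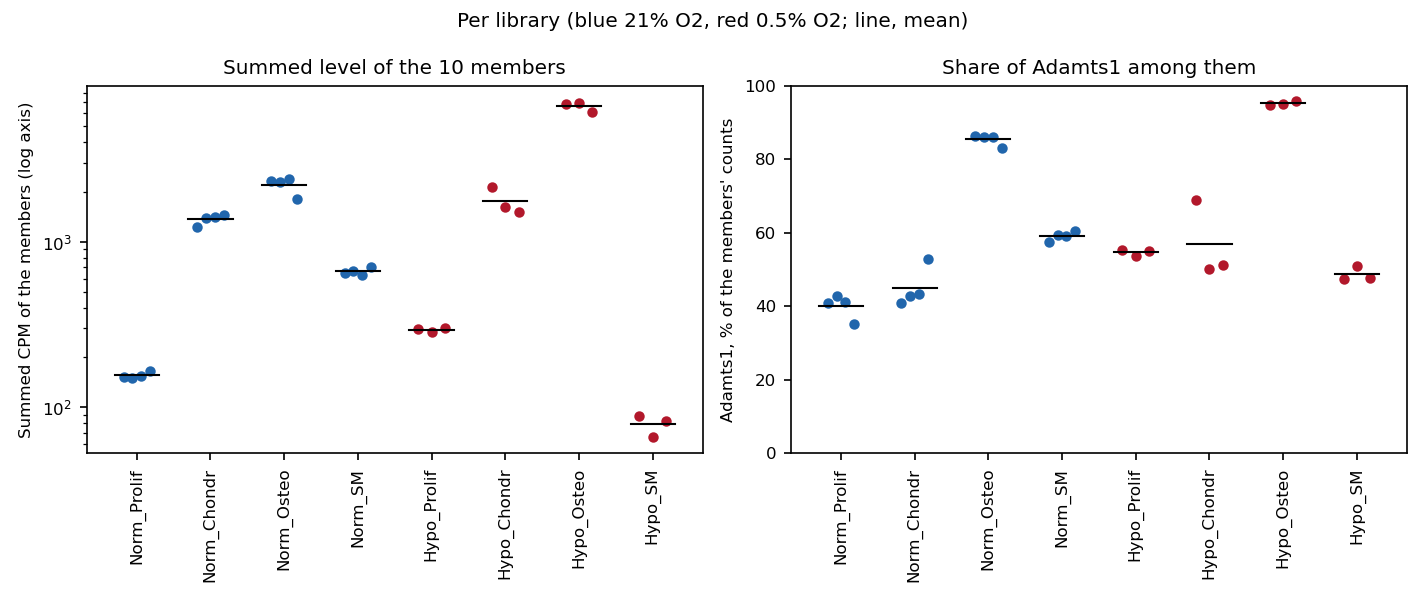
Summed CPM of the 10 ADAMTS members (left, log axis) and the percentage of their counts that came from Adamts1 (right) in each of the 28 libraries, by group (Norm, 21% O2, blue; Hypo, 0.5% O2, red; Prolif, proliferating; Chondr, chondrocyte; Osteo, osteoblast; SM, smooth muscle); black lines are group means. The hypoxic osteoblast libraries are highest in both panels, with a mean sum of 6653 CPM and a mean Adamts1 share of 95.3%.

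Adamts1, a proteoglycanase that also cleaves versican, was the most variable in absolute level. In normoxic proliferating cells its libraries lay at 62.0, 64.5, 63.8 and 58.0 CPM, in chondrocyte cultures at 504, 592, 615 and 765 CPM, in osteoblast cultures at 2009, 1996, 2068 and 1515 CPM and in smooth muscle cultures at 373, 396, 373 and 429 CPM. At 0.5% O2 they lay at 164, 153 and 165 CPM (proliferating), 1484, 817 and 782 CPM (chondrocyte), 6492, 6623 and 5898 CPM (osteoblast) and 41.9, 33.8 and 39.4 CPM (smooth muscle). The order of the group means ran from hypoxic osteoblast through normoxic osteoblast, hypoxic chondrocyte, normoxic chondrocyte, normoxic smooth muscle, hypoxic proliferating and normoxic proliferating to hypoxic smooth muscle. No neighbouring pair in that order overlapped in its libraries (7 of 7 pairs apart), and the highest mean was 165 times the lowest. One hypoxic chondrocyte library, replicate 1, stood well above its 2 partners.

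Adamts4, one of the main cartilage aggrecanases, was high in chondrocyte cultures. Its normoxic libraries lay at 3.60, 4.01, 4.90 and 7.91 CPM (proliferating), 148, 133, 125 and 91.6 CPM (chondrocyte), 20.5, 20.1, 21.5 and 24.4 CPM (osteoblast) and 73.2, 66.4, 65.4 and 71.0 CPM (smooth muscle). Its hypoxic libraries lay at 11.7, 12.0 and 13.2 CPM (proliferating), 106, 153 and 143 CPM (chondrocyte), 37.3, 40.4 and 34.5 CPM (osteoblast) and 1.42, 3.49 and 3.24 CPM (smooth muscle). The chondrocyte groups of both oxygen levels overlapped at the top, and the other 6 neighbouring pairs in its order did not overlap.

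Adamts5, the other main aggrecanase, was highest in normoxic osteoblast and smooth muscle cultures. Its normoxic libraries lay at 1.83, 1.70, 1.39 and 2.80 CPM (proliferating), 10.3, 12.7, 12.0 and 14.3 CPM (chondrocyte), 50.9, 50.4, 50.2 and 10.9 CPM (osteoblast) and 32.4, 35.3, 34.6 and 32.5 CPM (smooth muscle). The hypoxic ones lay at 2.96, 3.59 and 3.87 CPM (proliferating), 30.4, 26.2 and 25.5 CPM (chondrocyte), 9.95, 12.0 and 10.7 CPM (osteoblast) and 0.300, 1.496 and 0.833 CPM (smooth muscle). The fourth normoxic osteoblast library lay far from the other 3, within the range of the hypoxic osteoblast libraries.

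Adamts9, a versican-cleaving member, had the narrowest range of the 9 tested members, with a highest mean 8.82 times the lowest. Its means were 45.1 ± 5.52 CPM (SD, n = 4) in normoxic proliferating, 16.98 ± 3.03 CPM in chondrocyte, 117 ± 24.2 CPM in osteoblast and 60.2 ± 6.80 CPM in smooth muscle cultures. The hypoxic means were 59.7 ± 1.09 CPM (SD, n = 3), 17.8 ± 1.15 CPM, 98.8 ± 25.1 CPM and 13.3 ± 4.01 CPM in the same order. Adamts9 was lowest among differentiated normoxic groups where Adamts4 and Adamts12 were highest. Its exons share 1381 bp with A730049H05Rik and 424 bp with Gm15737 on the opposite strand, but these had 348 and 228 counts in all 28 libraries against 46670 for Adamts9. The use of strand in counting is not given in the sources used here, so reads from those stretches could belong to either gene. Adamts15, another proteoglycanase, was rare, with 808 counts in all and means from 0.0528 CPM in normoxic proliferating cells to 3.19 CPM in normoxic osteoblast cultures, where its libraries lay at 3.04, 2.96, 3.32 and 3.43 CPM.

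Among the procollagen amino-proteinases, Adamts2 and Adamts14 held opposite places. Adamts2 libraries lay at 1.40, 2.04, 1.26 and 2.66 CPM in normoxic proliferating cells, 84.5, 94.2, 92.9 and 77.8 CPM in chondrocyte, 84.7, 85.6, 88.6 and 66.6 CPM in osteoblast and 26.0, 24.2, 24.3 and 32.5 CPM in smooth muscle cultures. Under hypoxia they lay at 4.55, 3.48 and 4.21 CPM (proliferating), 61.4, 47.4 and 46.2 CPM (chondrocyte), 72.8, 81.6 and 53.6 CPM (osteoblast) and 8.40, 8.38 and 6.85 CPM (smooth muscle). The 4 chondrocyte and osteoblast groups filled the top of its order, each overlapping the next. Adamts14 was highest in the proliferating state, with 23.2, 24.3, 27.0 and 27.4 CPM at 21% O2 and 21.4, 22.5 and 22.5 CPM at 0.5% O2. All its differentiated libraries lay between 0.631 CPM (normoxic osteoblast) and 10.0 CPM (hypoxic smooth muscle), below every proliferating library. Over the 28 libraries the Pearson correlation of log2(CPM + 0.5) between Adamts2 and Adamts14 was -0.90, a description over libraries that share groups and depth. Adamts3, the third enzyme of this kind and known for activating the lymphatic growth factor VEGFC, had 5 counts in all, 4 and 1 in a pair of normoxic chondrocyte libraries. In the other 7 groups it was at 0, which allows at most 3 counts over the group, or 0.0177 CPM (normoxic proliferating) to 0.0878 CPM (hypoxic smooth muscle), so it entered no test.

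Adamts6, a relative of Adamts10 linked to fibrillin microfibrils, and Adamts12, the partner of Adamts7 in cleaving COMP, differed in their lineage. Adamts12 libraries in chondrocyte cultures lay at 407, 468, 495 and 405 CPM (normoxic) and 411, 500 and 459 CPM (hypoxic), and the lower of these group means was 5.23 times the next group's. Outside them it lay at 75.3 to 90.9 CPM in hypoxic osteoblast cultures and at 3.79 to 29.3 CPM in the other 5 groups. Adamts6 libraries lay at 8.74, 7.97, 8.09 and 4.76 CPM (normoxic proliferating), 55.6, 61.9, 63.7 and 71.8 CPM (chondrocyte), 42.1, 42.4, 42.6 and 15.98 CPM (osteoblast) and 59.9, 59.3, 53.4 and 46.0 CPM (smooth muscle). Under hypoxia its means were 14.1 ± 0.81 CPM (SD, n = 3), 46.7 ± 9.89 CPM, 12.4 ± 1.34 CPM and 3.68 ± 1.73 CPM in the same order. In its order of group means 5 of 7 neighbouring pairs overlapped, and a gap lay below the normoxic osteoblast mean, which was 2.54 times that of the next group, hypoxic proliferating cells.

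**Figure D2:**
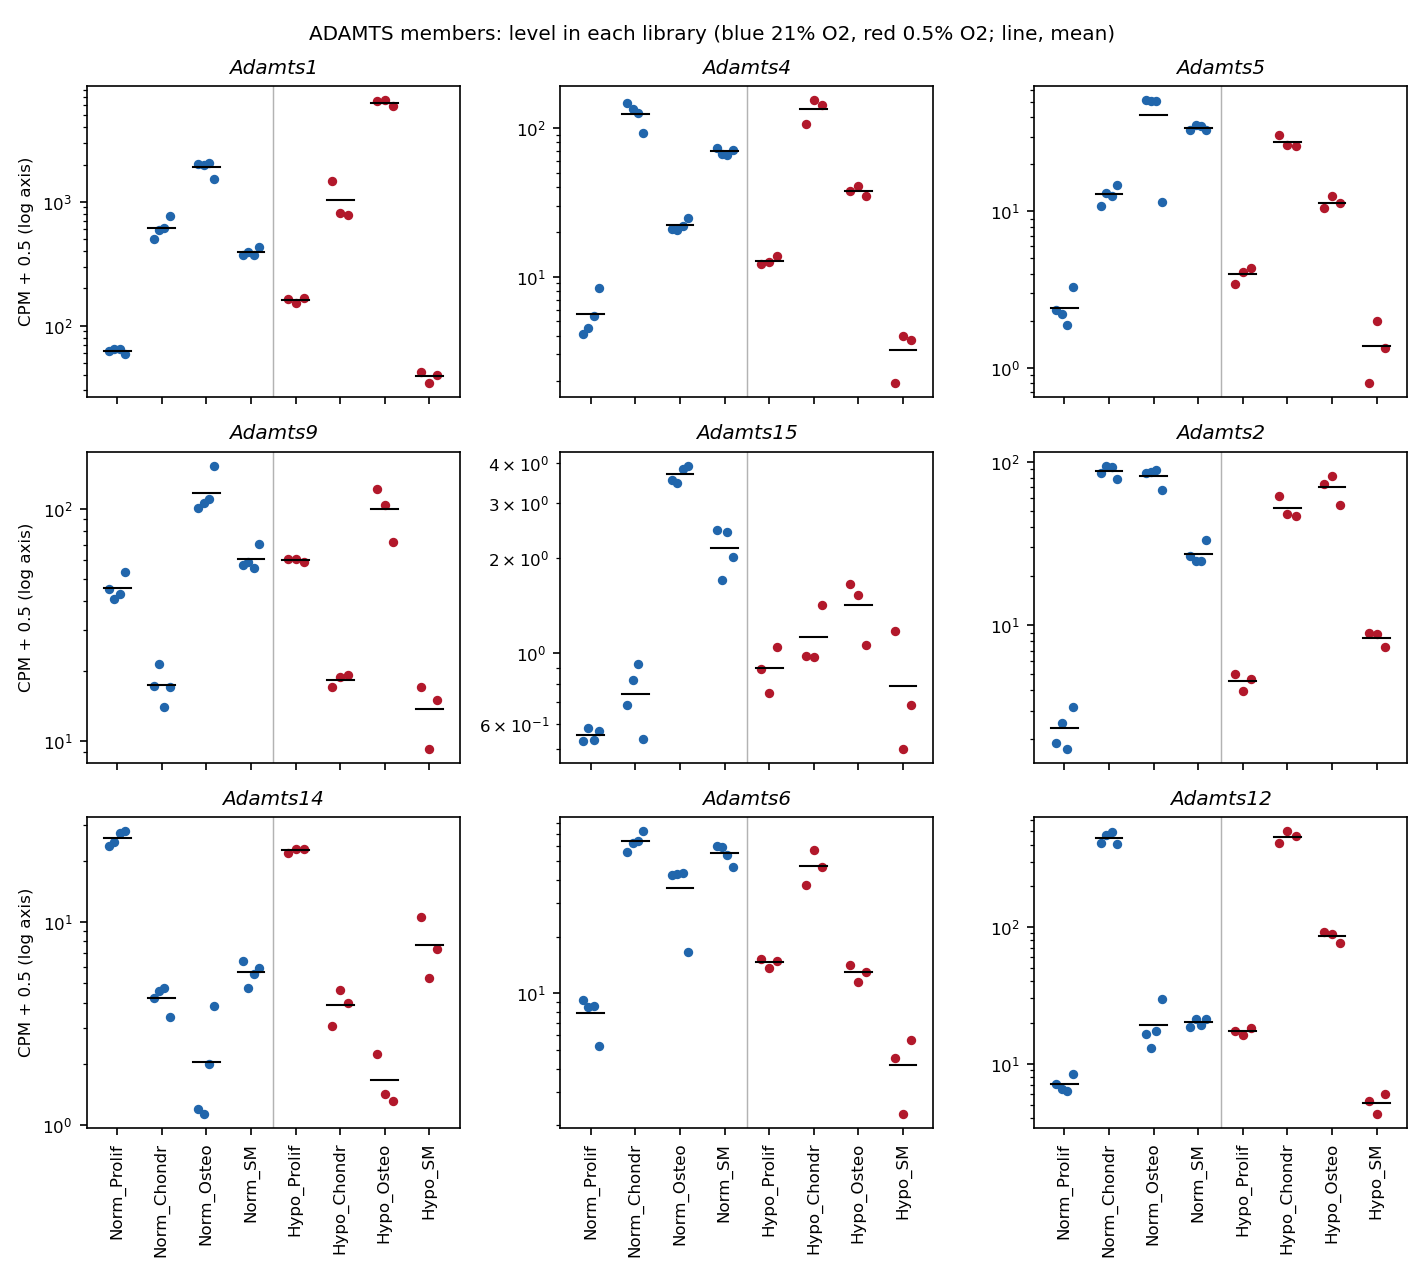
Level of 9 ADAMTS members in each library (CPM + 0.5, log axis), by group as named in the plot of summed levels; blue points are 21% O2, red points 0.5% O2 and black lines group means. Adamts1 peaks in the hypoxic osteoblast libraries (5898 to 6623 CPM), Adamts12 in both chondrocyte groups and Adamts14 in both proliferating groups, and the fourth normoxic osteoblast library lies far below its partners for Adamts5 and Adamts6.

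The fourth normoxic osteoblast library stood apart in several members, so the member calls of the 4 tests that use this group are also given without it. It had 10.9 CPM of Adamts5 against 50.2 to 50.9 CPM in its partners, 15.98 CPM of Adamts6 against 42.1 to 42.6 CPM and 1515 CPM of Adamts1 against 1996 to 2068 CPM. It was above its partners for Adamts9 (153 against 100 to 110 CPM), Adamts12 (29.3 against 12.5 to 16.8 CPM) and Adamts14 (3.33 against 0.631 to 1.49 CPM).

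On differentiation at 21% O2 most of the tested members rose. Differences were tested for each pair of groups by the quasi-likelihood test of edgeR over all genes that passed a filter on low counts, and a gene was called where its Benjamini-Hochberg adjusted p over all of them was under 0.05. In chondrocyte against proliferating cultures, 8 of the 10 members passed the filter, 6 were called higher and 2 lower, where 37.7% of all tested genes were called higher and 37.2% lower. In osteoblast cultures 8 rose and 1 fell of 9 tested (40.9% and 37.8% of all genes), and in smooth muscle cultures 8 rose and 1 fell of 9 (40.8% and 38.9%). These 3 comparisons share the normoxic proliferating libraries. Adamts15, with 1 to 6 counts in each normoxic proliferating library, passed the filter in the osteoblast and smooth muscle comparisons only through groups in which it was high, so its entry is no support for the counts here or in later comparisons with these groups. Scaling by library size alone moved the median of all genes in the chondrocyte comparison from 0.00 to -0.35 on the log2 scale and the higher share of all calls from 50.3% to 34.7%. Every member call of these 3 comparisons kept its direction and its call under that scaling.

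The rise was largest for Adamts12 in chondrocyte cultures, by 6.16 ± 0.12 (log2 fold change ± SE, adjusted p = 2.6e-12), and for Adamts2, by 5.64 ± 0.17 (adjusted p = 3.1e-10). Adamts4 rose there by 4.72 ± 0.26, Adamts1 by 3.39 ± 0.11, Adamts6 by 3.16 ± 0.16 and Adamts5 by 2.76 ± 0.20. In osteoblast cultures Adamts15 rose by 5.77 ± 0.30, Adamts2 by 5.52 ± 0.21, Adamts1 by 4.99 ± 0.11 and Adamts5 by 4.46 ± 0.50. Adamts6 (2.32 ± 0.32), Adamts4 (2.15 ± 0.23), Adamts12 (1.56 ± 0.25) and Adamts9 (1.43 ± 0.15) were also called higher. In smooth muscle cultures the rises ran from 0.47 ± 0.10 for Adamts9 (adjusted p = 0.000479) to 4.82 ± 0.41 for Adamts15, with Adamts1 at 2.71 ± 0.06 and Adamts5 at 4.21 ± 0.15. Adamts14 fell in all 3, with log2 fold changes of -2.70 ± 0.12 in chondrocyte, -3.96 ± 0.43 in osteoblast and -2.26 ± 0.11 in smooth muscle cultures (adjusted p of at most 1.8e-05). Without the fourth osteoblast library its fall in osteoblast cultures was -4.72, and the 8 rises and 1 fall there were called again. Adamts9 fell in chondrocyte cultures, at -1.34 ± 0.13 (adjusted p = 1.9e-06), the opposite of its call in the other lineages.

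At 0.5% O2 most tested members rose in chondrocyte and osteoblast cultures, and most fell in smooth muscle cultures. Of 9 members tested in hypoxic chondrocyte against hypoxic proliferating cultures, 6 rose, 2 fell and Adamts15 was not called, beside 34.9% of all genes higher and 34.6% lower. Under library-size scaling the median of all genes moved from -0.02 to -0.35 there and the higher share of calls from 50.2% to 31.8%. In hypoxic osteoblast cultures 7 rose, 1 fell and Adamts6 was not called (36.2% and 35.1% of all genes). The higher share was 50.8%, or 38.2% by library size alone with a median of -0.23. That scaling called Adamts6 lower (-0.41, adjusted p = 0.00651 by the edgeR test). In hypoxic smooth muscle cultures 1 of 8 rose and 7 fell (33.8% and 36.2% of all genes). The higher share of calls there was 48.3%, and 15.0% by library size alone, with a median of -1.35. These 3 comparisons share the hypoxic proliferating libraries.

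Adamts1 rose by 5.30 ± 0.08 in hypoxic osteoblast cultures (adjusted p = 1.6e-16) and by 2.67 ± 0.30 in hypoxic chondrocyte cultures. Adamts12 rose by 4.76 ± 0.09 in chondrocyte and by 2.33 ± 0.09 in osteoblast cultures, and Adamts2 by 3.65 ± 0.14 and 4.08 ± 0.16. Adamts4 rose by 3.44 ± 0.15 and 1.60 ± 0.10, and Adamts5 by 2.97 ± 0.13 and 1.65 ± 0.16. Adamts14 fell in both, at -2.72 ± 0.15 and -4.27 ± 0.20. Adamts9 fell in chondrocyte cultures, at -1.75 ± 0.08, and rose by 0.72 ± 0.15 in osteoblast cultures. Adamts15 was called higher in osteoblast cultures (1.19 ± 0.46, adjusted p = 0.0301), but 4 of the 6 fits that leave out a library, and library-size scaling (adjusted p = 0.0721), did not call it. Its libraries held 7 to 16 counts each in hypoxic proliferating and 16 to 30 in hypoxic osteoblast cultures. It entered only through the latter, so it is no support for the count of rises there.

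In hypoxic smooth muscle cultures 7 members were lower than in hypoxic proliferating cells. The log2 fold changes were -2.09 ± 0.28 for Adamts4, -2.04 ± 0.18 for Adamts9, -1.94 ± 0.10 for Adamts1, -1.91 ± 0.48 for Adamts5, -1.80 ± 0.28 for Adamts6, -1.71 ± 0.18 for Adamts12 and -1.47 ± 0.22 for Adamts14. The fall of Adamts5 was -2.55 without the second hypoxic smooth muscle library. Adamts5 held 4, 15 and 9 counts in the hypoxic smooth muscle libraries. It entered only through the proliferating ones (91 to 113 counts each), so it is no support for the count of 7 falls. Adamts2 was called higher by 1.07 ± 0.23 (adjusted p = 0.00128), but by library size alone it was at -0.21 (adjusted p = 0.407), with a median of all genes of -1.35. These are the libraries with 11.62% to 13.31% of counts in mitochondrial ribosomal RNA and with low smooth muscle markers, and the part of either in these values was not tested.

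**Figure D3:**
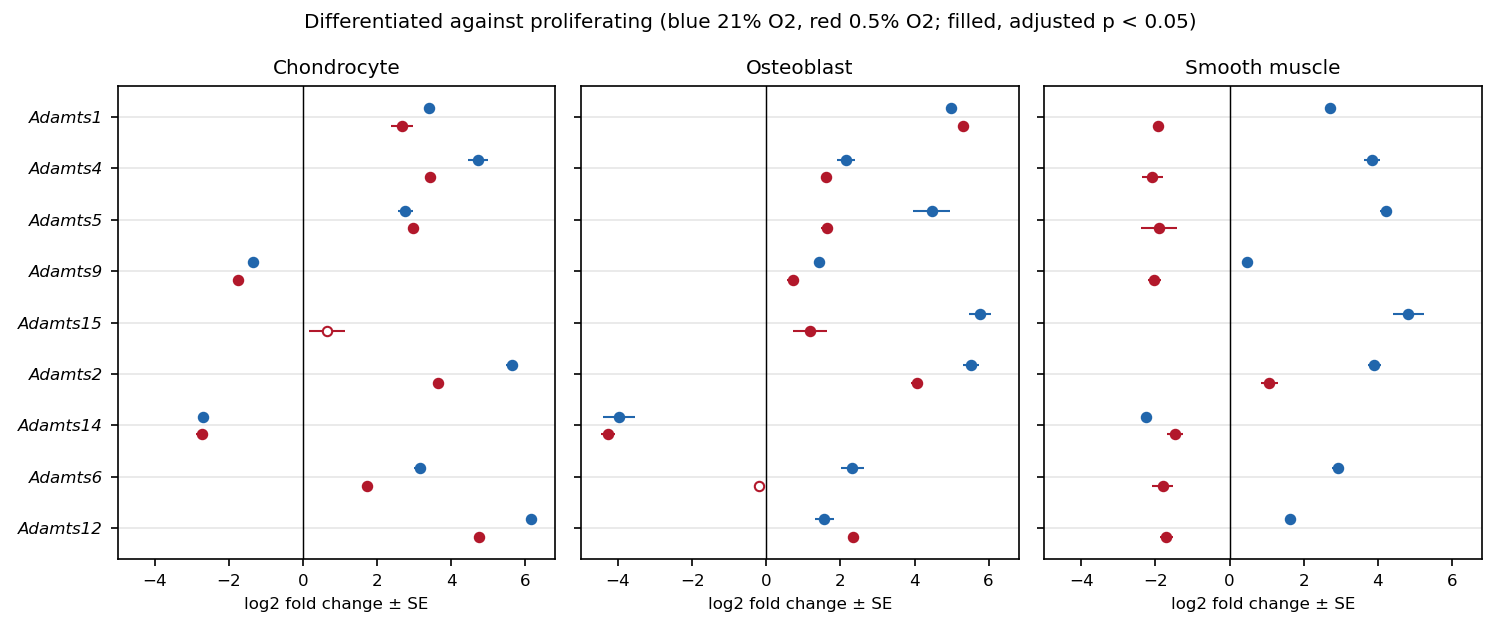
Log2 fold change ± SE of each tested ADAMTS member in chondrocyte, osteoblast and smooth muscle cultures against proliferating cells of the same oxygen level (blue, 21% O2; red, 0.5% O2; filled points, adjusted p under 0.05; untested members have no point). In the smooth muscle panel the blue points of 8 members lie above 0 and the red points of 7 lie below it.

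The response to low oxygen was tested within each state. In proliferating cells 7 of 8 tested members rose and 0 fell (33.1% and 32.3% of all genes), with Adamts14 not called at -0.15 ± 0.08 (adjusted p = 0.131). Adamts1 rose by 1.43 ± 0.05 (adjusted p = 3.6e-11), Adamts12 by 1.41 ± 0.12, Adamts4 by 1.35 ± 0.23, Adamts2 by 1.21 ± 0.25, Adamts6 by 0.98 ± 0.16, Adamts5 by 0.91 ± 0.24 and Adamts9 by 0.46 ± 0.09. In a fit of all 28 libraries the calls of Adamts5 (adjusted p = 0.0687) and Adamts9 (adjusted p = 0.0513) were lost. Library-size scaling called Adamts14 lower (-0.22, adjusted p = 0.0297). Of the markers, 3 of 3 tested chondrocyte ones rose in the same comparison (median 1.57). Smooth muscle markers split, with 2 higher and 1 lower of 3, and the 1 tested osteoblast marker fell. Their part in the members' values was not tested.

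In chondrocyte cultures 10.4% of all genes were called higher at 0.5% O2 and 11.8% lower, and of 9 members tested 1 rose, 2 fell and 6 were not called. Adamts5 rose by 1.15 ± 0.12 (adjusted p = 6e-05) and Adamts2 fell, at -0.76 ± 0.11 (adjusted p = 0.000509). The call of Adamts6 (-0.44 ± 0.14, adjusted p = 0.0448) was lost in 5 of 7 fits that leave out a library. Adamts1, at 0.72 ± 0.25 with an adjusted p of 0.0875, was 0.37 without the first hypoxic chondrocyte library, and was called higher in the fit of all 28 libraries (0.73, adjusted p = 0.00117). Adamts12, whose level was highest in these cultures, was at 0.04 ± 0.09, and Adamts4 at 0.10 ± 0.18. Of all calls 46.9% were higher, or 31.8% by library size alone. Chondrocyte markers were lower in the same comparison (3 of 4 tested fell, median -2.58) and in the interaction given further on (3 of 4, median -4.11), and their part in the members' values was not tested.

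In osteoblast cultures the members split, with 3 higher, 3 lower and 3 not called of 9, beside 27% and 27.3% of all genes. Adamts12 rose by 2.18 ± 0.26 (adjusted p = 0.000244), Adamts1 by 1.74 ± 0.12 (adjusted p = 5.4e-06) and Adamts4 by 0.79 ± 0.10. Adamts15 (-1.80 ± 0.28), Adamts6 (-1.52 ± 0.33) and Adamts5 (-1.90 ± 0.51) fell. The Adamts5 libraries overlapped between the groups through the fourth normoxic one, and its adjusted p of 0.0168 was 0.0608 by limma-voom. Without that library Adamts5 was at -2.21 (adjusted p = 4e-10), Adamts6 at -1.77 and Adamts12 at 2.48, and Adamts2 was also called lower, at -0.32 (adjusted p = 0.0311). Of all calls 49.6% were higher, or 36.9% by library size alone, with a median of -0.19. The hypoxic osteoblast libraries also had more osteoblast markers and summed adipocyte markers of 20.01 to 23.1 CPM against 2.52 to 6.09 CPM, with Adipoq, Cidec and Lep at 0. Smooth muscle markers were lower there (3 of 5 tested fell and 0 rose, median -0.93). The part of any of these in the members' differences was not tested.

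In smooth muscle cultures 8 of 9 members fell and 0 rose, where 40.2% of all genes fell and 35.4% rose. Adamts15 and Adamts5, both among the 8, entered only through the normoxic libraries, so they are no support for the count. Adamts15 held 45 to 66 counts in each normoxic library against 9, 0 and 2 in the hypoxic ones. Adamts5 held 1059 to 1315 against 4, 15 and 9, so the size of its fall rests on few counts. The largest falls were of Adamts5 (-5.28 ± 0.26, adjusted p = 8.4e-11), Adamts4 (-4.65 ± 0.20), Adamts6 (-3.81 ± 0.22) and Adamts1 (-3.29 ± 0.10, adjusted p = 2.7e-13). Adamts15 (-2.33 ± 0.66), Adamts9 (-2.10 ± 0.17), Adamts12 (-1.98 ± 0.17) and Adamts2 (-1.70 ± 0.16) were called lower too. Adamts15 was at -3.99 without the first hypoxic smooth muscle library, and Adamts5 at -5.91 without the second. Adamts14 was at 0.57 ± 0.25 with an adjusted p of 0.0503, and it stood at the threshold. RLE scaling (0.61), a filter at 50 counts (0.67), limma-voom (0.56) and DESeq2 (0.61) called it higher, with adjusted p of 0.0248 to 0.0465, library-size scaling called it lower at -0.79 (adjusted p = 0.0109), and with a library left out it ranged from 0.23 to 0.77, the latter called (adjusted p = 0.00632) without the second hypoxic smooth muscle library. That scaling moved the median of all genes from -0.12 to -1.49 and the higher share of calls from 46.8% to 15.6%. The 8 falls were called under it as well. These are again the libraries rich in mitochondrial ribosomal RNA.

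**Figure D4:**
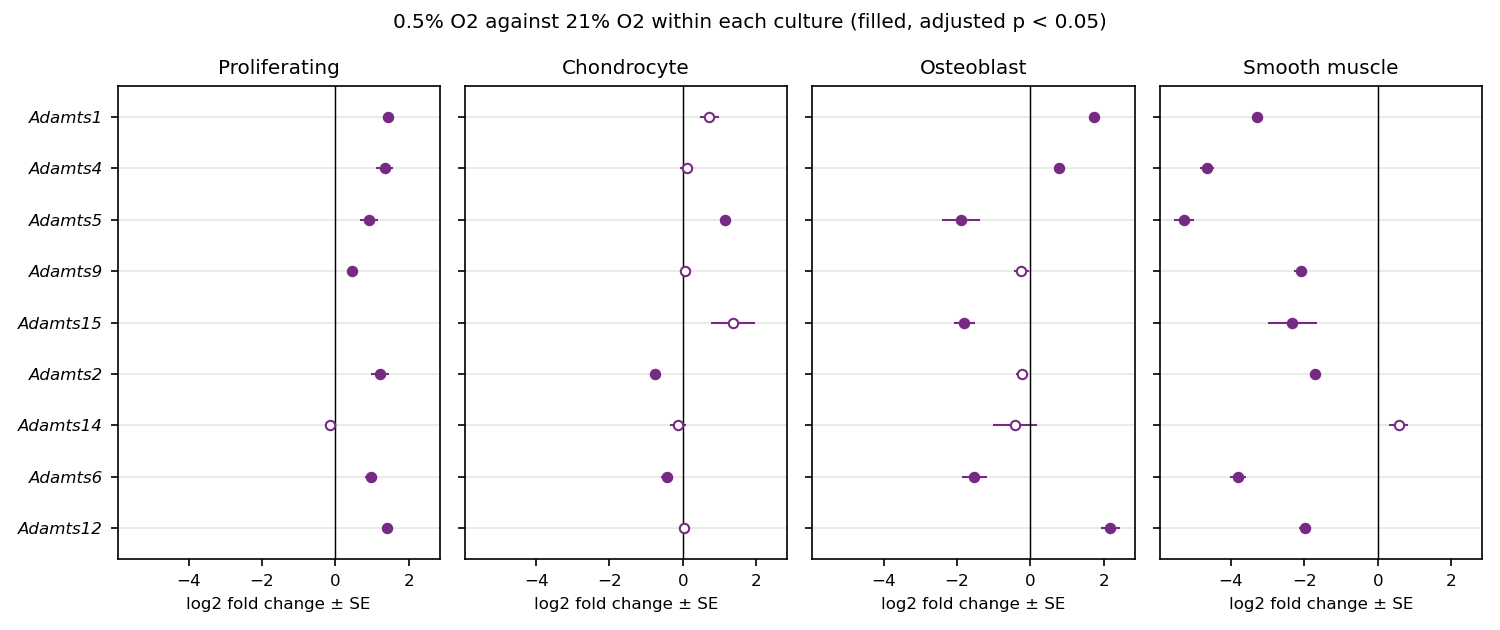
Log2 fold change ± SE of each tested ADAMTS member at 0.5% O2 against 21% O2 within proliferating, chondrocyte, osteoblast and smooth muscle cultures (filled points, adjusted p under 0.05). The members lie mostly above 0 in proliferating cells, between -0.76 and 1.36 in chondrocyte cultures, on both sides of 0 in osteoblast cultures and, except for Adamts14 at 0.57, below 0 in smooth muscle cultures, where Adamts5 was at -5.28.

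Whether low oxygen changed the differentiation response itself was tested with an interaction term, in which the normoxic log2 change on differentiation is subtracted from the hypoxic one. For chondrocyte cultures 4 of 9 members were called lower and 0 higher (21.9% and 21.6% of all genes). These were Adamts2 (-1.96 ± 0.25), Adamts6 (-1.41 ± 0.24), Adamts12 (-1.37 ± 0.15) and Adamts4 (-1.25 ± 0.34), each of which rose less from its hypoxic start. Of the 8 hypoxia response genes 7 were also called lower in this term (median -2.19), and their part in the members' values was not tested. Adamts1, at -0.69 with an adjusted p of 0.0641, was called lower under 5 of 9 alternative settings (adjusted p of 0.0262 to 0.0458), and was -1.05 (adjusted p = 4.2e-05) without the first hypoxic chondrocyte library. For osteoblast cultures 5 were lower and 2 higher of 9 (25.3% and 28.9% of all genes), and library-size scaling lost the calls of both higher members, Adamts1 (adjusted p = 0.122) and Adamts12 (adjusted p = 0.0916). Adamts15, which entered the test only through groups in which it was high and is no support for the count here or in smooth muscle cultures, was at -4.53 ± 0.55. Adamts5 was at -2.77 ± 0.63, Adamts6 at -2.46 ± 0.41 and Adamts2 at -1.39 ± 0.28. The other 3 calls, Adamts9 (-0.67 ± 0.24), Adamts1 (0.36 ± 0.13) and Adamts12 (0.81 ± 0.31), were called in 7, 10 and 4 of 14 fits without a library, and leaving out the second hypoxic proliferating library left 4 calls of 7. The call of Adamts5 was lost by limma-voom (adjusted p = 0.0977). Without the fourth normoxic osteoblast library 5 were again lower and 2 higher, with Adamts12 at 1.12 (adjusted p = 5.6e-06), Adamts5 at -3.10, Adamts6 at -2.70, Adamts9 at -0.51 and Adamts1 at 0.27, and Adamts14, not called, turned from -0.27 to 0.46. For smooth muscle cultures 8 of 9 members were lower and 1 higher (35.5% and 34.9% of all genes). The term was -6.16 ± 0.36 for Adamts5, -5.96 ± 0.34 for Adamts4, -5.08 ± 0.92 for Adamts15, -4.75 ± 0.29 for Adamts6, -4.67 ± 0.11 for Adamts1, -3.35 ± 0.20 for Adamts12, -2.86 ± 0.28 for Adamts2 and -2.52 ± 0.20 for Adamts9. Without a hypoxic smooth muscle library Adamts15 reached -6.74 (the first left out) and Adamts5 reached -6.79 (the second). The hypoxic smooth muscle libraries held 9, 0 and 2 counts of Adamts15 and 4, 15 and 9 of Adamts5. Adamts14 was called higher at 0.77 ± 0.23 (adjusted p = 0.00544), but by library size alone it was -0.56, with the median of all genes at -1.37 and the higher share of calls at 16.6% in place of 49.6%. It was not called without the first hypoxic smooth muscle library (adjusted p = 0.0769).

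The skeletal lineages were also set against each other. In normoxic chondrocyte against osteoblast cultures 4 of 9 members were higher, 4 lower and Adamts2 was not called at 0.08 ± 0.10 (28.6% of all genes higher and 31.1% lower; 48.0% of calls higher, or 34.3% by library size alone with a median of -0.19). Adamts12 was higher by 4.55 ± 0.26 and Adamts4 by 2.50 ± 0.14. Adamts15 was lower by a log2 difference of -3.72 ± 0.43, Adamts9 by -2.81 ± 0.17, Adamts5 by -1.74 ± 0.42 and Adamts1 by -1.64 ± 0.14. Adamts15 held only 1 to 12 counts in each normoxic chondrocyte library. It entered only through the osteoblast libraries (75 to 107 counts each), so it is no support for the normoxic counts here. The calls of Adamts14 (1.23 ± 0.47, adjusted p = 0.0466) and Adamts6 (0.80 ± 0.28, adjusted p = 0.0329) were lost by library size alone, and with a library left out Adamts14 was called in 1 of 8 fits (1.94 without the fourth osteoblast library, adjusted p of 0.0568 to 0.102 in the others) and Adamts6 in 5 of 8. Without the fourth osteoblast library 4 members were again higher and 4 lower, with Adamts5 at -2.06, Adamts12 at 4.85 and Adamts6 at 0.56. Under hypoxia 5 of 9 were higher, 3 lower and Adamts15 not called (28.6% and 29% of all genes). Adamts12 (2.43 ± 0.11), Adamts6 (1.92 ± 0.15), Adamts4 (1.85 ± 0.13), Adamts14 (1.55 ± 0.33) and Adamts5 (1.34 ± 0.12) were higher in chondrocyte cultures. Adamts1 was at -2.62 ± 0.25 and Adamts9 at -2.46 ± 0.17, and the call of Adamts2 (-0.42 ± 0.16, adjusted p = 0.0397) was lost in 4 of 6 fits without a library. Adamts5 thus had the opposite sign at the 2 oxygen levels, higher in osteoblast cultures at 21% O2 and in chondrocyte cultures at 0.5% O2, and this difference between oxygen levels was not tested as such.

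The partners of the family were counted from fixed lists. Of 9 other ADAMTS enzymes, Adamts7 and Adamts10 were detected in all 8 groups. Adamts7 fell in normoxic chondrocyte cultures, from 47.4 to 13.1 CPM (log2 -1.78), in which Adamts12 rose. Adamts16 and Adamts18 were at 0 in normoxic proliferating libraries and at 7.09 and 5.22 CPM in normoxic chondrocyte libraries. Of 20 substrates and matrix partners, 18 were tested in each normoxic comparison, and 17 rose and 1 fell in chondrocyte, 17 rose and 1 fell in osteoblast and 16 rose with 0 falls in smooth muscle cultures, beside 37.7%, 40.9% and 40.8% of all genes higher. The median log2 changes were 3.97, 2.65 and 1.55, against 0.00, 0.07 and 0.03 over all genes. Col2a1 (2 counts), Hapln1 (13) and Comp (28 over the 4 normoxic proliferating libraries) were tested only because of their level in the differentiated groups, so their rises are no support for these counts and medians. Acan, which encodes aggrecan, rose from 21.7 to 1964 CPM in normoxic chondrocyte cultures, and Comp from 0.140 to 51.8 CPM. Nid1, a basement membrane linker, was the 1 that fell in both. Vcan, which encodes versican, was higher at 0.5% O2 in osteoblast cultures by 2.51, where Adamts1 also rose. In hypoxic against normoxic smooth muscle cultures 14 of 18 fell and 3 rose, with a median of -2.14 beside -0.12 over all genes and 40.2% of all genes lower. Col2a1 (242 counts against 2) and Hapln1 (155 against 0), which fell, and Comp (132 against 11), not called, were tested only because of their normoxic level and are no support for this count or median.

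Of 10 inhibitors, cofactors and clearance factors, 8 or 9 were tested in each comparison. Timp3, the main tissue inhibitor of aggrecanases, rose from 60.5 to 560 CPM in normoxic chondrocyte and to 750 CPM in osteoblast cultures, and reached 2113 CPM in hypoxic osteoblast cultures, the group with the most Adamts1. Lrp1, the receptor that clears ADAMTS4 and ADAMTS5 from the matrix, rose in all 6 differentiation comparisons, by 0.60 in hypoxic smooth muscle cultures, where library-size scaling moves the median of all genes from -0.07 to -1.35, to 2.94 in normoxic chondrocyte cultures. Timp1 fell in normoxic osteoblast and smooth muscle cultures, at -2.55 in each. Of 10 processing and procollagen maturation partners, 10 of 10 tested rose in normoxic chondrocyte and 9 of 9 in osteoblast cultures, and 7 rose and 2 fell of 9 in smooth muscle cultures, beside 37.7%, 40.9% and 40.8% of all genes higher. Of these Pcsk5, at 0 counts in normoxic proliferating libraries, and Tll1, at 32, were tested only because of their level after differentiation and are no support for the counts. Tll1, a carboxy-terminal procollagen proteinase, rose from 0.188 to 253 CPM in chondrocyte cultures, and Bmp1 from 85.3 to 541 CPM. Furin, which removes the propeptide of ADAMTS enzymes, changed less, by 0.89 in normoxic chondrocyte and 0.63 in osteoblast cultures, and was at -1.31 in hypoxic smooth muscle cultures against hypoxic proliferating cells. Of 6 ADAMTS-like proteins, which lack the protease part, 5 of 5 tested rose in normoxic chondrocyte cultures (37.7% of all genes), and Adamtsl1 rose by 10.21 in osteoblast cultures, from 0.136 to 152 CPM. Adamtsl1 and Adamtsl2, with 22 and 6 counts over the normoxic proliferating libraries, were likewise tested only because of their later level.

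For each member, the gene with the most similar pattern was the one with the highest Pearson correlation of log2(CPM + 0.5) over the 28 libraries among 12406 candidates, a description over libraries that share groups and depth. It was Ids for Adamts1 (0.991), Col12a1 for Adamts2 (0.988), Arhgap31 for Adamts4 (0.972), Itgb3 for Adamts12 (0.971), Mtap for Adamts14 (0.962), Pcdhb17 for Adamts5 (0.951), March8 for Adamts6 (0.938), and Net1 and Csad for Adamts9 and Adamts15 (0.930 each). Among the members themselves the closest were Adamts4 and Adamts6 (0.870), and the neighbours Adamts1 and Adamts5 reached 0.745. In the authors' deposited comparisons, 87 log2 values of members could be set beside these fits, and all 87 had the same sign, with a median difference of 0.0251 on the log2 scale. The largest difference was 1.03, for Adamts15 in hypoxic against normoxic chondrocyte cultures (1.36 here and 0.33 in the authors' deposited table).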

How the data were processed

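Polyadenylated RNA of 28 libraries was sequenced from stranded libraries, per the labels. Reads were processed with HISAT2 2.0.5, StringTie 1.3.3b and featureCounts 1.5.0-p3 on mm10, per the submitters' processing notes, which give these names with no order, and the strand setting of counting is not given in the sources used here. The authors deposited whole-number counts per gene, unnormalised, and in 10 further tables log2 fold changes of pairs of groups, per the file headers, which were used only for comparison. A further 70 columns of single-library values in those tables were not used. Symbols came from the deposited tables for 9 members and from the reference for Adamts3, and GENCODE M21 (GRCm38) gave positions and the exon length used for per-kilobase levels.

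Counts were scaled by TMM. Genes were kept by the edgeR filter at a minimum of 10 counts, and each pair of groups was fitted to its own libraries (interactions to 4 groups) with the quasi-likelihood test of edgeR 4.0.16 (R 4.3.3, robust, statmod 1.5.0, two-sided), called at a Benjamini-Hochberg adjusted p under 0.05 over all genes. Of 132 member tests 110 were called. The SE is the log2 fold change divided by the root of the quasi-likelihood F. All 10 members are named, and for each the most similar gene among those with a mean of at least 10 counts. The members, lists and comparisons were chosen with earlier results of these data known. Alternatives were scaling by library size or by the relative log expression (RLE) of edgeR, other filters, limma-voom 3.58.1, the DESeq2 1.42.0 Wald test, all 28 libraries in a fit, mitochondrial genes left out, replicate numbers as a block, and each library left out in turn. The scripts were tested on simulated counts. No 2 libraries of a group agreed within sampling noise (smallest chi-square per degree of freedom 2.89 over 36 pairs). One exon overlap of a member with another gene is not reported here.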

Additional observations from a re-analysis of the deposited data

Results flagged for a closer look

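In 37 sets of 4 normoxic libraries, the lowest or highest library of each member was compared with its partners by Dixon's test, which chance passes in about 1 of 20 sets. The fourth normoxic osteoblast library stood out in 3 of them, at 1515 CPM for Adamts1, 10.9 CPM for Adamts5 and 15.98 CPM for Adamts6, each the lowest of its group.

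Several members responded to differentiation by a different amount at the 2 oxygen levels, by the interaction test of edgeR over all genes. In chondrocyte cultures the hypoxic log2 change differed from the normoxic one by -1.96 for Adamts2, -1.25 for Adamts4, -1.41 for Adamts6 and -1.37 for Adamts12. At 0.5% O2 Adamts4 and Adamts12 rose in proliferating cells (1.35 and 1.41) and were not called in chondrocyte cultures (0.10 and 0.04). Their terms thus mostly restate the higher hypoxic start. Adamts2 and Adamts6 rose in proliferating cells (1.21 and 0.98) and were lower in chondrocyte cultures (-0.76 and -0.44). In osteoblast cultures it differed by 0.36 for Adamts1, -1.39 for Adamts2, -2.77 for Adamts5, -2.46 for Adamts6, -0.67 for Adamts9, 0.81 for Adamts12 and -4.53 for Adamts15. In smooth muscle cultures it differed by -4.67 for Adamts1, -2.86 for Adamts2, -5.96 for Adamts4, -6.16 for Adamts5, -4.75 for Adamts6, -2.52 for Adamts9, -3.35 for Adamts12, 0.77 for Adamts14 and -5.08 for Adamts15. The 9 smooth muscle values rest on the 3 hypoxic smooth muscle libraries rich in mitochondrial ribosomal RNA, whose part was not tested. Adamts15 entered only through groups in which it was high, so its values are no support here. The osteoblast calls of Adamts9, Adamts1 and Adamts12 held in 7, 10 and 4 of 14 fits without a library. Limma-voom lost that of Adamts5. Library-size scaling lost the osteoblast calls of Adamts1 and Adamts12 and put Adamts14 in smooth muscle cultures at -0.56.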

How the results depend on the processing

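Of 110 member calls, 14 were lost or turned sign under at least 1 of 9 alternative settings or 126 fits without a library, of which 2 turned sign, both under scaling by library size alone: Adamts2 in hypoxic smooth muscle against proliferating cultures (-0.21) and the smooth muscle interaction of Adamts14 (-0.56). The same scaling turned values that were not called, in hypoxic against normoxic chondrocyte cultures Adamts12 (-0.0389) and Adamts9 (-0.0102), in hypoxic against normoxic smooth muscle cultures Adamts14 (-0.79), between normoxic chondrocyte and osteoblast cultures Adamts2 (-0.0760), and the chondrocyte interaction of Adamts14 (-0.000510). That interaction, close to 0, was also -0.0297 with RLE scaling, -0.0259 by limma-voom and -0.0313 by DESeq2, and -0.00759 with a filter at 50 counts. The cause was not tested.

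Same-numbered libraries did not deviate together (correlations of -0.278 to 0.113, with all pairs above 0.1 in 0 of 12 comparisons), so numbers were not taken as pairs. With the replicate block Adamts12 (-0.00731) and Adamts4 (-0.0315) in hypoxic against normoxic chondrocyte cultures and Adamts14 (0.31) in hypoxic against normoxic osteoblast cultures turned sign, none of them called. The block lost the calls of Adamts15 in hypoxic osteoblast against proliferating cultures (adjusted p = 0.0685) and Adamts6 between normoxic chondrocyte and osteoblast cultures (adjusted p = 0.0530), and gained those of Adamts2 in hypoxic against normoxic osteoblast cultures (adjusted p = 0.0127) and Adamts4 in the osteoblast interaction (adjusted p = 0.0268).

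With a library left out, genes called in hypoxic against normoxic chondrocyte cultures numbered 2091 to 3359 (3157 with all), fewest without the third hypoxic chondrocyte library, and member calls of the osteoblast interaction 4 to 7. In the former comparison the ranges were -0.0338 to 0.11 for Adamts12, -0.0344 to 0.18 for Adamts9, -0.0196 to 0.25 for Adamts4 and -0.30 to 0.0242 for Adamts14. Adamts14 ranged from -0.83 to 0.28 between osteoblast groups, from -0.14 to 0.18 in the chondrocyte and from -0.66 to 0.46 in the osteoblast interaction, and Adamts2 from -0.00300 to 0.15 between normoxic chondrocyte and osteoblast cultures. Depth limits Adamts3 (5 counts in all) and Adamts15 (808).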

Other observations

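A relative and a substrate of the family were called higher at 0.5% O2 in all 4 states. Adamtsl5, an ADAMTS-like protein without a protease part, rose at 0.5% O2 in proliferating cells from 3.18 to 31.4 CPM (log2 fold change 3.35), in osteoblast cultures from 5.72 to 55.7 CPM (3.28), in smooth muscle cultures from 2.89 to 18.5 CPM (2.74) and in chondrocyte cultures from 7.98 to 14.8 CPM (0.89). Nid1, which encodes the basement membrane protein nidogen-1 and is a substrate of ADAMTS1, also rose in all 4 states, by 1.61, 0.94, 1.75 and 1.07 in the same order. The smooth muscle values rest on the hypoxic libraries rich in mitochondrial ribosomal RNA, where library-size scaling moves the median of all genes from -0.12 to -1.49. Its partner gene Nid2 rose in proliferating cells, by 0.58, and was lower in osteoblast (-2.25), smooth muscle (-4.98) and chondrocyte (-2.14) cultures. Fbn2, which encodes the microfibril protein fibrillin-2, was likewise lower in the 3 differentiated states, at -2.15, -4.10 and -1.48, and higher in proliferating cells, by 0.71. All these changes were called by the quasi-likelihood test of edgeR over all genes, and the genes were picked from the fixed lists after their values were seen. Ccbe1, the cofactor that ADAMTS3 needs to activate VEGFC, was detected in all 8 groups and was highest in hypoxic osteoblast cultures at 158 CPM, where Adamts3 had 0 counts.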
